A study of Mus musculus with 6 samples.

Results

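The account concerns 27 genes of inhibitory signalling in the mouse hippocampus, which make and move GABA, form its receptors, set the chloride gradient, or mark the interneurons that release it. They were taken by gene symbol from a table of 23361 genes, and neuropeptide genes were left out. Of the 27, 26 were listed under their own symbol and Dlx6os1 under its older name Dlx6as1, and 27 of 27 passed the filter of a mean of at least 1 FPKM.

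RNA was measured in whole hippocampus of mice homozygous for Tet1Δe4, a deletion at the Tet1 locus, and of Tet1+/+ mice, with 3 libraries each, called Tet1-deficient and wild-type here. The mice of all 6 libraries had received electroconvulsive shock through the ears (100 Hz, pulses of 0.2 ms, 18 mA, 1.15 seconds), a stimulus that evokes a tonic-clonic seizure, and hippocampi were taken 1.5 to 2 hours afterwards. No unshocked library enters, so both groups share the seizure, and its own effect was not measured. The study set the genotypes against each other at a time when activity-dependent genes are induced. The sources used here do not state age or strain, and sex is stated in no label, although the title of wild-type replicate 1 carries an f in its code where the other 5 carry an m. Nothing in the labels limits the deletion to a cell type. Replicate numbers are names and pair no libraries.

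GABA is the main inhibitory transmitter of the forebrain. It is made from glutamate by glutamate decarboxylase, loaded into vesicles, and sensed by chloride-conducting GABA-A receptors and by G protein-coupled GABA-B receptors. GABA-A receptors are pentamers whose subunits set where they sit and how they open. The chloride gradient that makes their current inhibitory is kept by cation-chloride cotransporters. In the hippocampus GABA comes mostly from interneurons, a minority of the neurons, so a bulk RNA level cannot tell apart fewer interneurons and less RNA in each. TET1 oxidises methylated cytosine, which in mammals lies mostly in CG dinucleotides, and the CG content of the promoters is therefore given first.

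Promoters of 24 of the 27 genes were found in RefSeq (GRCm38.p6), and the 250 bases before the first listed start were searched for the motif CG, which reads the same on both strands. The median was 13.5 CG for the 24 genes and 6 for 27025 genes with a promoter, of which 91.7% held at least 1. Reln and Gabbr2 had 37, and Gabra3 had 0. The 4 shown were chosen for contrast: Gabra2 and Gabrg1 lie on the same stretch of chromosome 5 and varied alike between libraries, while Reln and Pvalb are the interneuron genes at the ends of the CG range among those windows free of annotated exons. Each is written 5′ to 3′ on the strand of its gene, with CG in capitals.

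Gabra2, chr5:71095850-71096099, minus strand: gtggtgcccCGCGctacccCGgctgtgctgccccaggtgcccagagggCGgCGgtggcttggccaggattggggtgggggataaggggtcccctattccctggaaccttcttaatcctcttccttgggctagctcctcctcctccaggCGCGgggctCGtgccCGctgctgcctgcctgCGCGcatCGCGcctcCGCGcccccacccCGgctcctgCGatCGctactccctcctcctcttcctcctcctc

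Gabrg1, chr5:70842618-70842867, minus strand: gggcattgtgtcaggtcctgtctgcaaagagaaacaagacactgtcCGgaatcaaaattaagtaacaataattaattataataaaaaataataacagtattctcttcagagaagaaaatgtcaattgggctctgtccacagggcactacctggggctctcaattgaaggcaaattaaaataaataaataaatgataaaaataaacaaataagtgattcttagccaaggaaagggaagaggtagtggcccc

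Reln, chr5:22344706-22344955, minus strand: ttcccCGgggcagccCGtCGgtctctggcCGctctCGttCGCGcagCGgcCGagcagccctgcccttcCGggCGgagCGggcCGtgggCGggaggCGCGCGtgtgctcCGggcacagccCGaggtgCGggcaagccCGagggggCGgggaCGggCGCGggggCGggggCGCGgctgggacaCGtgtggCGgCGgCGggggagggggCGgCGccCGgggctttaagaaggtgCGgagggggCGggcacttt

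Pvalb, chr15:78206401-78206650, minus strand: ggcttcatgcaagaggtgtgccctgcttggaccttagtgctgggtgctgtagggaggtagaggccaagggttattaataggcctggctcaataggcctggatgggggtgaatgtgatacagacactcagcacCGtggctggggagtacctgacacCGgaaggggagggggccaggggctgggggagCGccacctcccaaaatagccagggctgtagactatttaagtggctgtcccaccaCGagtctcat

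These windows hold 18 CG for Gabra2, 1 for Gabrg1, 37 for Reln and 4 for Pvalb. At least as many as in Reln were found in 2.12% of all promoters, and at least as many as in Gabrg1 in 91.7%. No methylation was measured, and the counts describe the letters alone.

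The libraries differed in a way the genotypes do not explain. On the first principal component of the tested genes, with 53.3% of the variance, replicate 1 of each genotype lay apart, at −27.9 for Tet1-deficient and −26.7 for wild-type, while the other 4 lay between 10.5 and 15.5. These 2 libraries also differed from each other. On the second component, with 16.8% of the variance, they lay at opposite ends, at −15 for Tet1-deficient and 16.1 for wild-type. The other 4 lay between −7.83 and 11.2 there. Low values set the same 2 libraries apart. Among genes under 0.03 FPKM in both libraries of a pair, 35.6% to 45.7% shared a single ratio (within 0.3%) in each of the 6 pairs of the other 4 libraries. In the 9 pairs that hold 1 or both of these libraries the share was 1.52% to 3.31%. Such shared ratios arise where values are multiples of 1 read, and they place the depths of 4 libraries at 0.625 (Tet1-deficient replicate 2), 1.18 (Tet1-deficient replicate 3), 0.741 (wild-type replicate 2) and 1 (wild-type replicate 3), if the commonest ratio compares single reads. Absolute depth is unknown. Wild-type replicate 1 also differed in sex-linked genes. Xist, the RNA of the inactive X chromosome, measured 63.5 FPKM there and 0.0389 to 0.202 FPKM in the other 5 libraries, while the Y-linked Ddx3y measured 0.0381 FPKM there and 16.7 to 35.2 FPKM in the others. No Tet1-deficient library has this pattern, and in wild-type replicate 1 it cannot be told apart from the distance of that library on the first component. Several results that rest on these libraries are also given without the pair or without wild-type replicate 1 alone.

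Tet1 itself measured 0.740, 0.685 and 0.638 FPKM in Tet1-deficient and 0.977, 0.718 and 0.897 FPKM in wild-type libraries, and the groups overlapped (exact two-sided permutation p = 0.2, smallest possible 0.1). A value over the whole gene does not check the loss of 1 exon. Marker genes of hippocampal neurons were present throughout: the 8 excitatory markers summed to 2960 to 3050 FPKM in Tet1-deficient and 2680 to 2920 FPKM in wild-type libraries, and the 8 dentate granule cell markers to 93.8 to 134 FPKM in Tet1-deficient and 107 to 114 FPKM in wild-type libraries. The 8 pan-neuronal markers summed to 2930 to 2960 FPKM in Tet1-deficient and 2720 to 2910 FPKM in wild-type libraries. The genotypes thus do not overlap in these sums or in those of the excitatory markers. The sums were neither rescaled nor tested, and 4.13% of all tested genes, taken singly, had no overlap in either direction.

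In the GABA system no gene was called different between the genotypes. Of the 27 genes, 0 passed the test (limma on log2(FPKM + 1), adjusted over all 12533 tested genes, threshold 0.05), where 0.0319% of all tested genes passed, and the adjusted p was 1 for each of them. At an unadjusted p under 0.05 stood 1 of the 27, Gabrd, against 1.36% of all tested genes. Differences from here on are Tet1-deficient minus wild-type on the log2(FPKM + 1) scale, which understates those of low genes. They were positive for 10 genes and negative for 17, with a median of −0.01, beside 6632 positive, 5901 negative and a median of 0.0055 over all tested genes. With median-of-ratios scaling, which shifts all genes of a library alike, the split was 15 and 12, beside 7719 and 4814 over all tested genes. Without wild-type replicate 1 it was 14 and 13, beside 5801 and 6715. The libraries of the genotypes did not overlap for Gad1 and Gabrd, both lower in Tet1-deficient hippocampus, and for no gene in the other direction. Over all tested genes 2.21% lay wholly lower and 1.91% wholly higher.

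The 95% intervals show what differences the data leave possible. For 22 of the 27 genes the interval lay inside a 1.5-fold difference in either direction (0.58 on the log2 scale). It reached beyond for Gabra2, Gabrb2, Gabrg1, Dlx6os1 and Reln, and 4 of these 5 had a high value in replicate 1 of both genotypes.

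**Figure D1:**
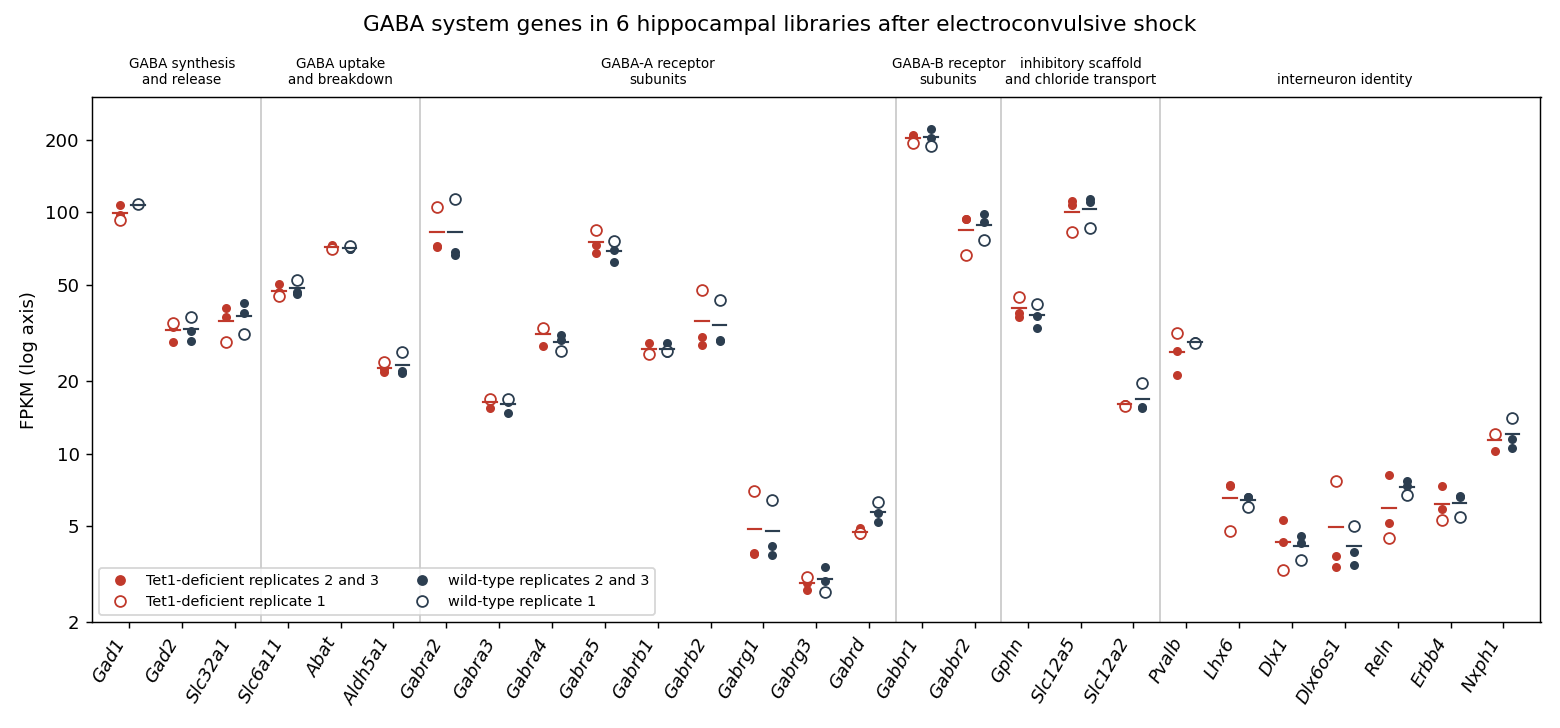
FPKM (log axis) of the 27 genes in each library, Tet1-deficient in red at the left and wild-type in dark blue at the right of each gene, with open circles for replicate 1 and bars for group means. The open circles leave the filled ones in the same direction in both genotypes for Gabra2, Gabrb2, Gabrg1 and Slc12a5, and the colours separate for Gad1 and Gabrd.

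**Figure D2:**
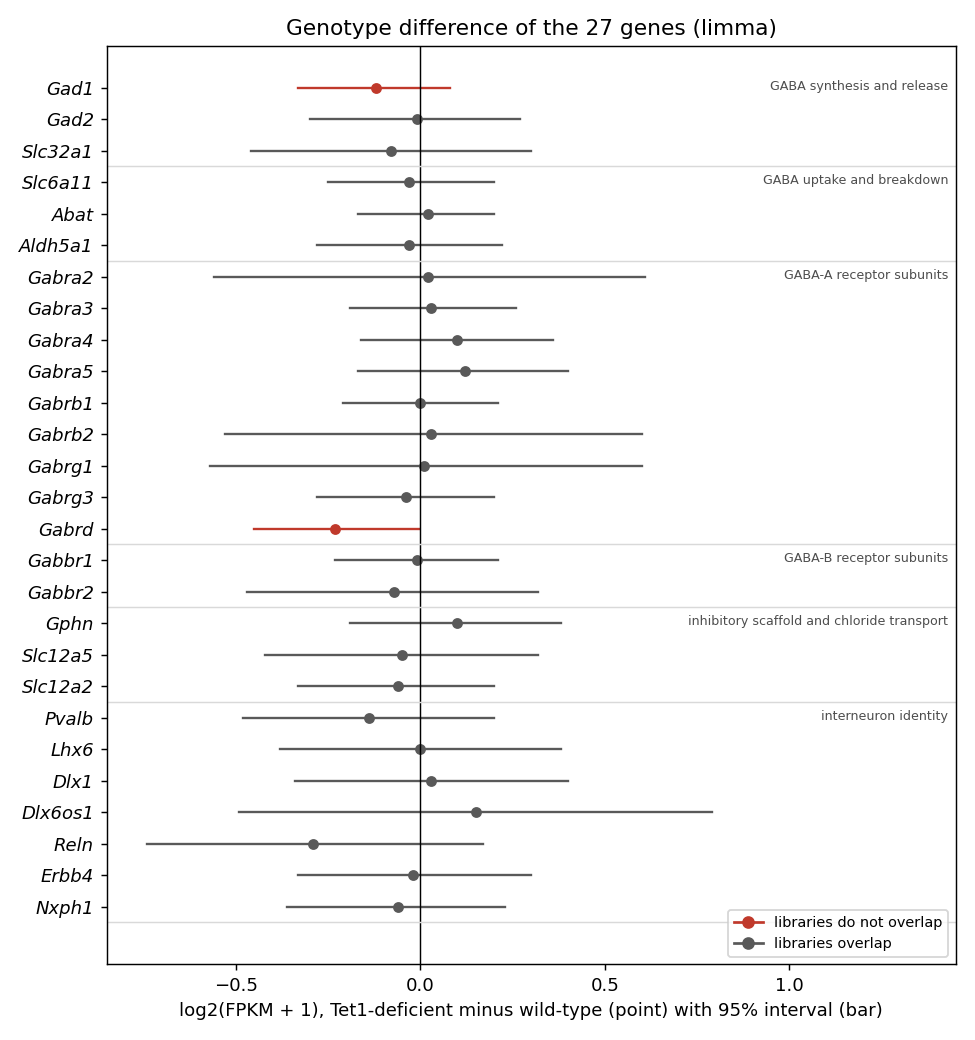
Difference in log2(FPKM + 1), Tet1-deficient minus wild-type, of each gene (point) with its 95% interval from limma (bar), in red where the libraries of the genotypes do not overlap. The interval of 26 of the 27 genes includes 0, and that of Gabrd ends at −0.0044.

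Of the GABA-synthesising enzymes, Gad1, which encodes the decarboxylase GAD67, was the more abundant transcript. It lies at chr2:70553072-70602014 on the plus strand (mm10, as are the other gene positions) and measured 93.1, 107 and 97.4 FPKM in Tet1-deficient libraries and 108, 108 and 107 FPKM in wild-type libraries. The Tet1-deficient libraries lay lower, yet the highest of them was 0.368 FPKM under the lowest wild-type library. The means were 99.1 ± 6.91 FPKM in Tet1-deficient and 108 ± 0.672 FPKM in wild-type libraries (SD, n = 3 each), a difference of −0.12 (95% interval −0.33 to 0.08, limma unadjusted p 0.2, adjusted p 1). With median-of-ratios scaling, quantile normalization or removal of each library's GC and length trend the groups overlapped. Without the pair apart the difference was −0.08 (limma unadjusted p 0.257). Gad2, which encodes the synaptic decarboxylase GAD65, had 34.8, 33.5 and 29.1 FPKM in Tet1-deficient and 36.9, 32.1 and 29.4 FPKM in wild-type libraries, which overlap throughout. Gad1 exceeded Gad2 by 2.67, 3.19 and 3.35 times in Tet1-deficient and by 2.93, 3.37 and 3.64 times in wild-type libraries. Both enzymes were thus measured in every library, with the lowest ratio of each genotype in replicate 1. Slc32a1, the vesicular GABA transporter, measured 28.9, 40.3 and 36.7 FPKM in Tet1-deficient and 31.4, 42.1 and 38.3 FPKM in wild-type libraries. Its replicate 1 was the lowest of both genotypes, and the difference was −0.08 (SE 0.16).

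For GABA uptake and breakdown the genotypes lay close together. Abat, the transaminase that begins GABA breakdown, measured 70.2, 73.4 and 72.7 FPKM in Tet1-deficient and 72.4, 70.8 and 70.3 FPKM in wild-type libraries, a difference of 0.02 with an interval of −0.17 to 0.2. Slc6a11, the transporter GAT-3 of astrocytes, had 45.1, 50.3 and 46.9 FPKM in Tet1-deficient libraries, against 52.5, 45.8 and 46.9 FPKM in wild-type libraries (difference −0.03, interval −0.25 to 0.2). The astrocyte markers, 9 genes of which none was at 0, summed to 1180 to 1350 FPKM in Tet1-deficient and 1130 to 1310 FPKM in wild-type libraries. Aldh5a1, the succinic semialdehyde dehydrogenase that ends the pathway, had 24.0, 22.4 and 21.8 FPKM in Tet1-deficient and 26.3, 22.0 and 21.5 FPKM in wild-type libraries. The libraries of all 3 genes overlapped between genotypes.

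The 9 GABA-A subunits covered a wide range of levels. FPKM is scaled by length, so levels can be set side by side, but replicate 1 shifted the subunits unequally and the order is given with and without it. Gabra2 averaged 83.1 FPKM over the 6 libraries and Gabra5, of largely extrasynaptic receptors on pyramidal cells, 72.2 FPKM, and their libraries overlap. Gabrb2 (34.7 FPKM), Gabra4 (30.2 FPKM) and Gabrb1 (27.1 FPKM) formed a middle group whose libraries also overlap. Gabra3 followed at 16.2 FPKM, apart from its neighbours in every library. Gabrd (5.24 FPKM) and Gabrg1 (4.84 FPKM) overlapped, and Gabrg3 was lowest at 2.95 FPKM, below both. In the 4 libraries without replicate 1, Gabrb2 averaged 29.3 FPKM and Gabra4 30.3 FPKM, the other way round but still overlapping. There Gabrd, at 4.61 to 5.69 FPKM, lay above Gabrg1, at 3.79 to 4.14 FPKM, with no overlap. The overlap of these genes over all 6 libraries thus came from the high Gabrg1 values of replicate 1.

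Gabrd, the delta subunit of extrasynaptic receptors that carry tonic current in dentate granule cells, showed the clearest separation of the genotypes among the subunits. The gene lies at chr4:155384980-155398112 on the minus strand. It measured 4.69, 4.61 and 4.94 FPKM in Tet1-deficient libraries and 6.29, 5.23 and 5.69 FPKM in wild-type libraries. Every Tet1-deficient library lay under every wild-type library, the means being 4.75 ± 0.174 FPKM in Tet1-deficient, 82.7% of wild-type, and 5.74 ± 0.529 FPKM in wild-type (SD, n = 3 each). The difference was −0.23 (SE 0.094, interval −0.45 to −0.0044), with a limma unadjusted p of 0.0467 and an adjusted p of 1, so it did not pass. In the 4 libraries without the pair apart it was −0.16 (unadjusted p 0.0881), without wild-type replicate 1 alone −0.17 (unadjusted p 0.127), and with GC and length trends removed −0.2 with overlapping groups (unadjusted p 0.124). Over all settings it lay between −0.28 and −0.12, and the lowest adjusted p was 0.528. Gabra4, the alpha subunit that pairs with delta in granule cells, had 33.2, 32.7 and 27.9 FPKM in Tet1-deficient and 26.6, 29.7 and 30.9 FPKM in wild-type libraries, a difference of 0.1 in the other direction with overlap. The granule cell markers overlapped as well, with the sums given above, as did the 8 thalamic markers, at 25.9 to 35 FPKM in Tet1-deficient and 28.3 to 32.1 FPKM in wild-type libraries; their part in the Gabrd values was not tested.

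Gabra2, an alpha subunit of synaptic receptors, had 105, 72.1 and 72.2 FPKM in Tet1-deficient libraries and 114, 68.5 and 66.6 FPKM in wild-type libraries. Replicate 1 stood high in both genotypes, and the means were equal to within the rounding, at 83.1 ± 18.9 FPKM in Tet1-deficient and 83.1 ± 27 FPKM in wild-type libraries (SD, n = 3 each). In the other 4 libraries the Tet1-deficient values were the higher ones by 0.09 (limma unadjusted p 0.106, adjusted p 0.999). There 31.3% of all tested genes had no overlap between genotypes, in either direction. The beta subunit Gabrb2 and the gamma subunit Gabrg1 had the same shape. Gabrb2 ran from 28.1 to 47.6 FPKM in Tet1-deficient and from 29.2 to 43.5 FPKM in wild-type libraries, and Gabrg1 from 3.82 to 6.97 FPKM in Tet1-deficient and from 3.79 to 6.40 FPKM in wild-type libraries. In each case replicate 1 was the highest, and the differences were 0.03 and 0.01.

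Gabra5 ran from 67.7 to 84.8 FPKM in Tet1-deficient and 62.1 to 75.8 FPKM in wild-type libraries (difference 0.12, interval −0.17 to 0.4). Gabra3, another alpha subunit, ran from 15.5 to 16.9 FPKM in Tet1-deficient and from 14.7 to 16.9 FPKM in wild-type libraries. Gabrb1, a beta subunit, ran from 26.0 to 28.7 FPKM in Tet1-deficient and from 26.1 to 28.8 FPKM in wild-type libraries, so the ranges nearly coincide. Gabrg3 measured 3.07, 2.72 and 2.91 FPKM in Tet1-deficient and 2.67, 3.39 and 2.97 FPKM in wild-type libraries, which overlap. Summed over the 9 subunits, FPKM came to 328, 256 and 259 in Tet1-deficient and 319, 253 and 245 in wild-type libraries, so the pair of libraries apart exceeded the rest whatever the genotype. Gabra4 and Gabrb1 overlap head to head on opposite strands of chromosome 5; the authors' strand setting is unknown here, so shared reads cannot be told apart.

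The GABA-B receptor works as a pair of subunits, of which Gabbr1 binds GABA and Gabbr2 couples to the G protein. Gabbr1 was the most abundant of the 27 transcripts, at 193, 209 and 207 FPKM in Tet1-deficient and 189, 222 and 203 FPKM in wild-type libraries (difference −0.01, interval −0.23 to 0.21). Gabbr2 had 66.8, 93.9 and 93.7 FPKM in Tet1-deficient and 76.5, 98.5 and 91.2 FPKM in wild-type libraries, with replicate 1 lowest in both genotypes (difference −0.07, interval −0.47 to 0.32). Gabbr1 exceeded Gabbr2 by 2.89, 2.23 and 2.21 times in Tet1-deficient and by 2.47, 2.26 and 2.22 times in wild-type libraries. Outside replicate 1 this ratio lay between 2.21 and 2.26 in both genotypes.

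Gephyrin, encoded by Gphn, anchors GABA-A receptors at inhibitory synapses. It measured 44.8, 37.0 and 38.4 FPKM in Tet1-deficient and 41.8, 37.3 and 33.3 FPKM in wild-type libraries, which overlap (difference 0.1, interval −0.19 to 0.38). Slc12a5, the neuronal chloride extruder KCC2, had 83.0, 111 and 107 FPKM in Tet1-deficient and 86.4, 110 and 114 FPKM in wild-type libraries. Slc12a2, the chloride importer NKCC1, had 15.8, 16.1 and 16.1 FPKM in Tet1-deficient and 19.6, 15.4 and 15.6 FPKM in wild-type libraries. The extruder exceeded the importer in every library, by 5.25, 6.88 and 6.63 times in Tet1-deficient and by 4.42, 7.18 and 7.29 times in wild-type libraries. The 2 low ratios are those of replicate 1, and the genotypes overlap. The differences were −0.05 (interval −0.42 to 0.32) for Slc12a5 and −0.06 (interval −0.33 to 0.2) for Slc12a2.

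Interneuron identity genes were all measured, and 0 of 7 passed the test (limma, 0 also at an unadjusted p under 0.05). Pvalb, the calcium buffer of fast-spiking basket cells, was the highest at 31.7, 21.2 and 26.6 FPKM in Tet1-deficient and 28.7, 28.8 and 29.4 FPKM in wild-type libraries. The wild-type values were nearly equal (SD 0.391 FPKM) while the Tet1-deficient ones spread on both sides of them (SD 5.24 FPKM). The difference was −0.14 (interval −0.48 to 0.2). Without the pair apart both Tet1-deficient libraries were under both wild-type ones, with −0.28 and a limma unadjusted p of 0.0409 (adjusted p 0.999). In those 4 libraries 31.3% of all tested genes had no overlap between genotypes, in either direction.

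Reln, the secreted glycoprotein reelin of dendrite-targeting interneurons and Cajal-Retzius cells, had the largest absolute difference of the 27 genes, −0.29 (SE 0.193, limma adjusted p 1). The gene spans chr5:21884454-22344702 on the minus strand. It measured 4.47, 8.19 and 5.14 FPKM in Tet1-deficient and 6.73, 7.32 and 7.70 FPKM in wild-type libraries. The highest and the lowest value were both Tet1-deficient, so the groups overlap. The value depends on single libraries. Without Tet1-deficient replicate 2 it was −0.51 (limma unadjusted p 0.005, adjusted p 1) and without Tet1-deficient replicate 1 it was −0.13. Without the pair apart it was −0.18 (limma unadjusted p 0.378), and without wild-type replicate 1 alone −0.33 (limma unadjusted p 0.185). Cajal-Retzius markers, 10 genes with Reln among them and 5 above the filter, summed to 31.1, 51.9 and 42 FPKM in Tet1-deficient libraries. In wild-type libraries they summed to 40.6, 47.6 and 49.2 FPKM. The lowest and the highest library were those of Reln, but Reln is itself part of the sums. Calb2, at 17.5, 30.9 and 26 FPKM in Tet1-deficient and 22.9, 28.5 and 29.3 FPKM in wild-type libraries, made most of each sum. Calb2 is also among the interneuron genes outside the 27, so the sums are not particular to Cajal-Retzius cells, whose part was not tested.

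Lhx6, a transcription factor of interneurons born in the medial ganglionic eminence, had 4.77, 7.45 and 7.35 FPKM in Tet1-deficient and 6.02, 6.63 and 6.62 FPKM in wild-type libraries (difference −0.0016). Dlx1, a homeobox factor of interneuron precursors and several adult interneuron classes, had 3.30, 5.31 and 4.29 FPKM in Tet1-deficient libraries, against 3.62, 4.57 and 4.25 FPKM in wild-type libraries. In both genes replicate 1 was the lowest of each genotype. Dlx1 shares its locus with Dlx1as, an antisense transcript listed at 10.9 to 13.8 FPKM in Tet1-deficient and 11.1 to 14.2 FPKM in wild-type libraries, so the level of Dlx1 is uncertain. Dlx6os1, a long noncoding RNA of the Dlx5 and Dlx6 locus, went the other way, with 7.72, 3.76 and 3.38 FPKM in Tet1-deficient and 5.02, 3.91 and 3.47 FPKM in wild-type libraries. Its interval was the widest of all, −0.49 to 0.79, and it overlaps Dlx6 on the opposite strand.

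Erbb4, the neuregulin receptor of interneurons, had 5.33, 7.32 and 5.91 FPKM in Tet1-deficient and 5.46, 6.59 and 6.67 FPKM in wild-type libraries (difference −0.02). Nxph1, the neurexin ligand neurexophilin, had 12.1, 10.3 and 11.8 FPKM in Tet1-deficient and 14.0, 11.5 and 10.6 FPKM in wild-type libraries (difference −0.06). Both overlap between genotypes.

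The pair of libraries apart moved many of the 27 genes in the same direction in both genotypes. Both replicate 1 libraries lay above the other 4 for 10 of the 27 genes and below them for 7, where 28.5% and 35% of all tested genes did so. The pair was picked for its distance from the other libraries over all genes, so these counts are a description. The GC content of the longest annotated transcript was 35.3% to 48.3% in the 10 genes and 40.6% to 61.9% in the 7. Across the 27 genes the mean deviation of the pair was related to GC content with a Pearson r of −0.71 and a Spearman rho of −0.63. Across 12435 genes the values were −0.64 and −0.73. Genes are not independent, and all points share the same libraries. Erbb4, at 40.6% GC and low in the pair, went against this order. Gabrb1, at 40.9% GC, also lay lower in replicate 1 of Tet1-deficient (−0.08) and wild-type mice (−0.04). Slc6a11, at 53.9% GC, and Gabrd, at 54.7% GC, were higher in wild-type replicate 1 (0.18 and 0.17). In Tet1-deficient replicate 1 they were lower (−0.11 and −0.02).

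**Figure D3:**
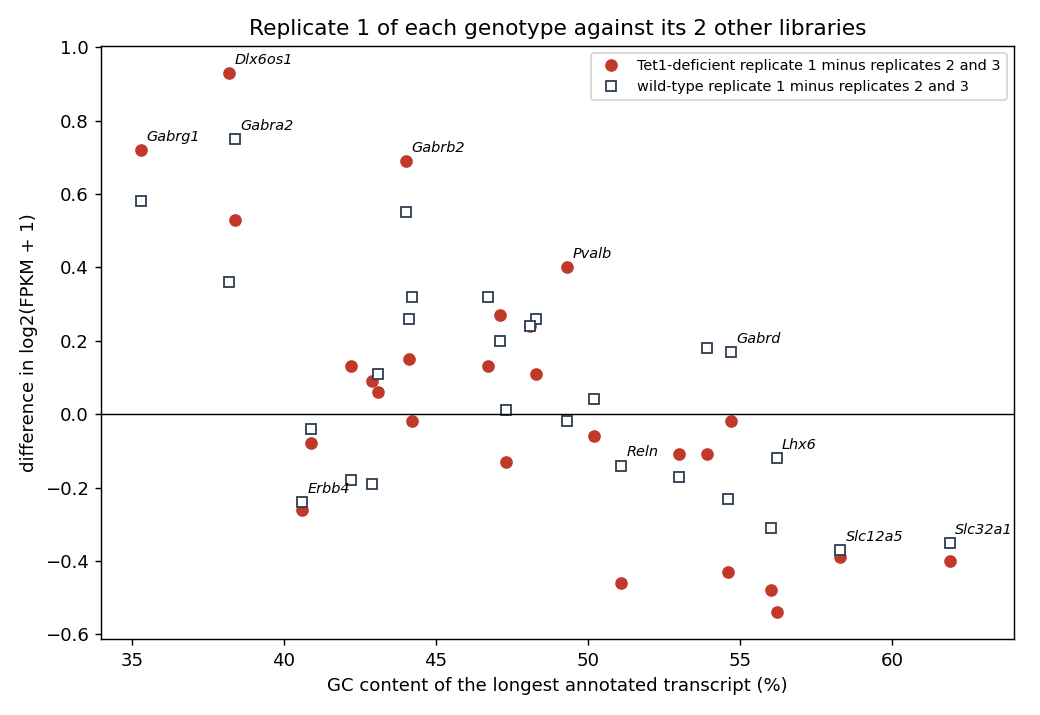
Difference in log2(FPKM + 1) of replicate 1 from the mean of replicates 2 and 3, for Tet1-deficient (red circles) and wild-type libraries (open squares), against the GC content of the longest transcript of each of the 27 genes. AT-rich Gabrg1, Gabra2 and Dlx6os1 lie above 0 and GC-rich Slc32a1 and Slc12a5 below it in both genotypes. Erbb4 and Gabrb1, at 40.6% and 40.9% GC, also lie below 0 in both.

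The other genes of the pathway held no called gene either. Of 96 further listed genes 80 were tested and 0 passed in either direction (limma, lowest adjusted p 1). At an unadjusted p under 0.05 stood 1 higher and 1 lower of the 80, beside 1.36% of all tested genes. Of 9 further genes of GABA metabolism and transport 3 were higher and 6 lower, with a median of −0.03. Glul, the glutamine synthetase of astrocytes, had the smallest p there and was the most abundant gene named here, at 949, 914 and 864 FPKM in Tet1-deficient and 865, 784 and 844 FPKM in wild-type libraries (difference 0.13, unadjusted p 0.162). Slc6a13, the transporter GAT-2, named here after its values were seen, had the widest difference of the list, −0.7, at 1.71, 2.13 and 0.732 FPKM in Tet1-deficient and 5.11, 0.748 and 4.89 FPKM in wild-type libraries. It is also a marker of meningeal fibroblasts, and the 8 genes of that list, of which 6 passed the filter, summed to 28.7 to 35 FPKM in Tet1-deficient and 28.7 to 58.1 FPKM in wild-type libraries; their part was not tested.

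Of 8 tested GABA-B receptor partners 4 were higher and 4 lower, and Kcnj9, a subunit of the potassium channels that the receptor opens, had the smallest p (difference −0.26, unadjusted p 0.27). It measured 15.0, 22.7 and 26.0 FPKM in Tet1-deficient and 21.3, 24.4 and 29.8 FPKM in wild-type libraries, which overlap. Of 18 organisers of inhibitory synapses 13 were higher and 5 lower, with a median of 0.02. Slitrk3, an adhesion protein of inhibitory synapses, was the 1 gene of 18 without overlap, beside 4.13% of all tested genes in either direction. It had 40.3, 39.8 and 40.9 FPKM in Tet1-deficient and 37.0, 38.9 and 35.5 FPKM in wild-type libraries (difference 0.12, limma unadjusted p 0.194).

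Chloride transport held the smallest p of the listed genes. Wnk4, a kinase that regulates cation-chloride cotransporters, had 1.58, 2.43 and 2.22 FPKM in Tet1-deficient and 0.888, 0.680 and 1.37 FPKM in wild-type libraries. Every Tet1-deficient library was above every wild-type library, the means being 2.08 ± 0.443 FPKM in Tet1-deficient and 0.978 ± 0.351 FPKM in wild-type (SD, n = 3 each). The wild-type mean was under the filter of 1 FPKM. Wnk4 was tested because the higher Tet1-deficient values brought its mean over all libraries to 1.53 FPKM. Its values are near the floor, and the filter at a mean of 5 FPKM left it out. The difference was 0.64 (SE 0.167, interval 0.25 to 1.04), with a limma unadjusted p of 0.00644 and an adjusted p of 1, so it did not pass. It was 0.74 without the pair apart (adjusted p 0.942), and its lowest adjusted p, 0.053, came with estimated library weights. Of the 11 tested genes of this list 6 were higher and 5 lower.

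Interneuron genes outside the 27 lay mostly on the lower side. Of 31 tested, 24 were lower and 7 higher in Tet1-deficient hippocampus, with a median of −0.08, beside 47.1% lower over all tested genes; 0 passed. Nr2f2, a transcription factor of interneurons born in the caudal ganglionic eminence, had the smallest p, with 5.05, 7.64 and 6.34 FPKM in Tet1-deficient and 9.80, 7.6 and 8 FPKM in wild-type libraries (difference −0.37, limma unadjusted p 0.049, adjusted p 1, and −0.14 without the pair apart). Without wild-type replicate 1, the highest library, Nr2f2 differed by −0.28 (limma unadjusted p 0.135). Its groups overlapped by a single pair of libraries. Kit, a receptor tyrosine kinase, was the 1 gene of 31 without overlap, beside 4.13% of all tested genes in either direction. It had 13.6, 15.2 and 14.7 FPKM in Tet1-deficient and 17.5, 15.9 and 16.2 FPKM in wild-type libraries (difference −0.18, limma unadjusted p 0.083). Lower genes numbered 22 of 31 with median-of-ratios scaling, where 38.4% of all tested genes were lower. They numbered 21 with quantile normalization, beside 48.2%, and 22 without the pair apart, beside 48% (median −0.06). The median was −0.004 without Tet1-deficient replicate 1, with 17 of 31 lower, beside 47.3% of all tested genes. It was −0.15 without wild-type replicate 1, −0.03 without wild-type replicate 3 and −0.12 without Tet1-deficient replicate 2. Summed FPKM of the 8 excitatory neuron markers, of which none was at 0, was higher in Tet1-deficient libraries, with the sums given above. That of the pan-neuronal markers was higher as well. A sum weighs abundant genes most and is not a count of signs, so it cannot be set against the interneuron counts. The part of these markers in the interneuron values was not tested.

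**Figure D4:**
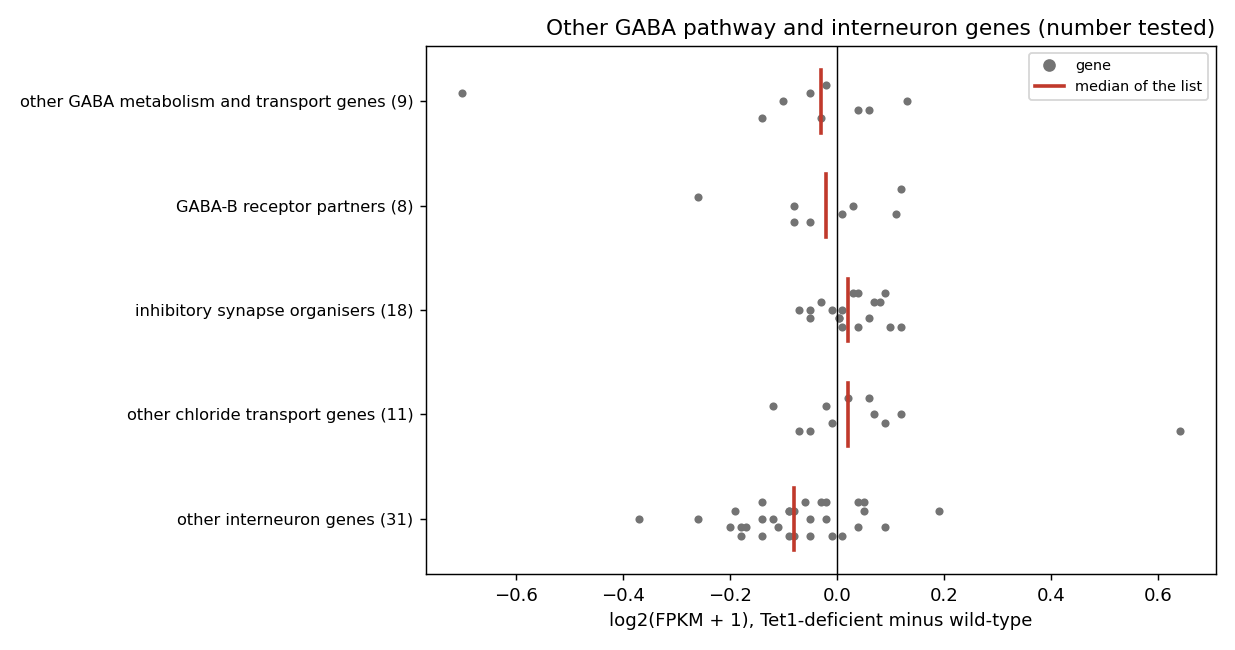
Difference in log2(FPKM + 1), Tet1-deficient minus wild-type, of every tested gene (grey points) of 5 lists outside the 27 genes, with the list median (red bar) and the number tested in brackets. Wnk4 lies at 0.64 among the chloride transport genes, and 24 of 31 interneuron genes lie under 0.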

How the data were processed

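RNA-seq of hippocampus was compared between 3 libraries of Tet1-deficient and 3 of wild-type mice, all shocked. The authors deposited FPKM per gene. Reads were processed with TopHat2 2.0.9 and Cufflinks 2.1.1 on mm10, per the submitters' processing notes. The sources used here do not state the annotation or the strand setting, and absolute depth is unknown.

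Values were tested as log2(FPKM + 1) with limma 3.58.1 (R 4.3.3, intensity trend, two-sided) on 12533 of 23361 genes, those averaging 1 FPKM or more, and p-values were adjusted by Benjamini and Hochberg's method (threshold 0.05). The design text counts 3 mice per genotype. The p-values of the main fit rest on the spread between the libraries of a genotype, which limma adjusts with that of all tested genes. This spread holds the split of the replicate 1 libraries as well as differences between mice. The code was tested on simulated data. Other settings were 2 filters, a pseudocount of 0.1, 2 scalings, no trend, library weights and leaving out each library. The 3 settings on the library split and on GC content and length were chosen after seeing the data. GC content and positions come from GENCODE M21.

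All 27 genes are named. Libraries are given in full for all but intermediate GABA-A subunits; of each further list the smallest p and any under 0.05 are named, except for 1 list that is not reported here. Members and lists were chosen with earlier results of these data known.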

Additional observations from a re-analysis of the deposited data

How the results depend on the processing

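With 3 libraries per genotype and unknown depth, small differences are not resolved. None of the 27 genes passed under any setting tried (limma, lowest adjusted p 0.356 with library weights, for Reln, and 0.668 otherwise), nor did the further pathway genes, and the Tet1 call did not change. Over all tested genes 4 passed, against 1 with a filter at a mean of 5 FPKM, 8 where the split of the libraries entered the fit, 59 with estimated weights, 13 in the 4 libraries that lie together and 0 to 6 when each library was left out in turn. Genes of the 27 without overlap numbered 2, or 7.41%, beside 4.13% of all tested genes. They numbered 1 with median-of-ratios scaling and 1 with quantile normalization (3.7% each, beside 4.39% and 4.25%), 0 with GC content and length trends removed (beside 6.4%) and 9 in the 4 libraries (33.3%, beside 31.3%). With each library left out they numbered 2 to 5 (7.41% to 18.5%, beside 7.51% to 21.5% of all genes), with 5 without Tet1-deficient replicate 1 (18.5%, beside 12.9%) and 4 without wild-type replicate 1 (14.8%, beside 21.5%). Their median difference ran from −0.05 to 0.03 with each library left out.

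The sign held under every setting for Gad1, Gabra5, Gabrd, Gphn and Reln and turned under at least 1 for the other 22 genes; the cause was not tested. With median-of-ratios scaling the turned log2 differences were Gad2 0.01, Gabrb1 0.02, Gabbr1 0.01, Lhx6 0.02 and Erbb4 0.0014. With quantile normalization they were Abat −0.01, Gabra2 −0.01, Lhx6 0.01 and Erbb4 0.00098. With library weights they were Slc6a11 0.03, Gabra4 −0.07, Gabrg1 −0.06, Slc12a2 0.04, Lhx6 0.13, Dlx1 −0.01, Dlx6os1 −0.1 and Nxph1 0.04. In the 4 libraries they were Gad2 0.02, Slc6a11 0.07, Aldh5a1 0.02, Gabra4 −0.01, Gabrb1 0.01, Gabrb2 −0.01, Gabrg1 −0.03, Slc12a2 0.05, Lhx6 0.14 and Dlx6os1 −0.04. With GC content and length trends removed they were Slc6a11 0.01, Gabra2 −0.05, Gabrg1 −0.1, Gabbr1 0.03 and Lhx6 0.03.

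With each library left out in turn the log2 difference ranged over both signs for Gad2 (−0.09 to 0.07), Slc32a1 (−0.19 to 0.05), Slc6a11 (−0.07 to 0.03), Aldh5a1 (−0.08 to 0.06), Gabra2 (−0.16 to 0.27), Gabra3 (−0.02 to 0.07), Gabrb1 (−0.04 to 0.04), Gabrb2 (−0.2 to 0.22), Gabrg1 (−0.22 to 0.21) and Gabrg3 (−0.1 to 0.03). It did so too for Gabbr1 (−0.06 to 0.05), Gabbr2 (−0.18 to 0.09), Slc12a5 (−0.17 to 0.08), Slc12a2 (−0.12 to 0.04), Pvalb (−0.27 to 0.0037), Lhx6 (−0.1 to 0.18), Dlx1 (−0.11 to 0.17), Dlx6os1 (−0.16 to 0.34), Erbb4 (−0.13 to 0.07) and Nxph1 (−0.14 to 0.04). No paired analysis was possible because the replicate numbers were given in the order of the samples and the labels tie no Tet1-deficient library to a wild-type one.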

Other observations

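Several receptor genes sit next to each other. Gabrg1 (chr5:70751047-70842617), Gabra2 (chr5:70957597-71095849), Gabra4 (chr5:71569749-71658308) and Gabrb1 (chr5:71658113-72149037) lie in one stretch of chromosome 5. In replicate 1 of Tet1-deficient and wild-type mice, Gabrg1 exceeded the other replicates by 0.72 and 0.58 and Gabra2 by 0.53 and 0.75 on the log2(FPKM + 1) scale, while Gabrb1 differed from them by −0.08 and −0.04. Genes of this stretch thus differed in how far replicate 1 lay from the others. On chromosome 7, Gabra5 (chr7:57407672-57510059), which lies 4.84 Mb from the imprinted gene Ndn, has Gabrg3 (chr7:56716465-57387188) beside it. Their genotype differences were 0.12 for Gabra5 and −0.04 for Gabrg3 (limma, adjusted p 1 for both).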
